A study of Mus musculus with 6 samples.

Results

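The genes described here encode proteins of the small nuclear ribonucleoproteins (snRNPs) or factors that act with them. Each was assigned to U1, U2, U5, U4/U6 or the assembled U4/U6.U5 tri-snRNP. They were chosen by symbol from a written list, which left out the Sm proteins that these particles share and so *Snrpb* itself. All 35 listed symbols were found among the 24421 gene symbols of the count table, and all 35 passed the filter on low counts that left 15584 genes for testing. The list holds 8 genes assigned to U1, 13 to U2, 6 to U5 and 8 to U4/U6 or the tri-snRNP. RNA came from heads of embryonic day (E) 9 mouse embryos, with 3 wild-type (WT) libraries (SnrpB +/+) and 3 mutant libraries (SnrpB+/-). Each library was made from 2 pooled heads of somite-matched embryos from different litters. The background was a mix of CD1 and C57BL/6J by the study's methods. The sample titles name CD1, and another label reads C57BL/6. In the mutants, called *Snrpb* ncc+/-, 1 *Snrpb* allele carried *loxP* sites around exons 2 and 3, and the *Wnt1-Cre2* transgene deleted them in neural tube cells and in cells of the neural crest. The other cells of the head kept both copies, and whether the WT embryos carried the transgene is not given. The comparison asks how the genes for these proteins were expressed when 1 copy of the gene for a shared core protein was deleted in part of the head.

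An snRNP is a small nuclear RNA bound by a ring of Sm or Lsm proteins and by proteins particular to that RNA. U1 binds the 5′ splice site and U2 the branch point, helped by the U2AF factors at the 3′ splice site. The U4/U6.U5 tri-snRNP then joins, U4 is unwound from U6, and the catalytic centre forms around U6, U2 and the U5 protein PRPF8. SNRPB is 1 of the Sm proteins, so it is part of U1, U2, U4 and U5.

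Promoter windows of the 4 genes that DESeq2 called below are shown first, because these members are the ones whose difference between genotypes passed a test across all genes. Each is the 250 bases before the start in the RefSeq promoter table (GRCm38.p6), read 5′ to 3′ on the strand of the gene. Capitals mark a match to the NRF1 motif (GCGCA and GCGC on either side of any 1 base) in *Prpf39* and *Prpf3*, and to the ETS motif CCGGAAG in *Sf3b3*, each on either strand. The *Snrpa1* window holds neither motif, and it lies inside the longer *Snrpa1* gene model of Gencode M21. RefSeq lists 2 windows for *Prpf3*, of which 1 is shown. The windows lie at chr12:65036084-65036333 (+) for *Prpf39*, chr7:66060086-66060335 (+) for *Snrpa1*, chr3:95855886-95856135 (−) for *Prpf3* and chr8:110846804-110847053 (−) for *Sf3b3*.
Prpf39: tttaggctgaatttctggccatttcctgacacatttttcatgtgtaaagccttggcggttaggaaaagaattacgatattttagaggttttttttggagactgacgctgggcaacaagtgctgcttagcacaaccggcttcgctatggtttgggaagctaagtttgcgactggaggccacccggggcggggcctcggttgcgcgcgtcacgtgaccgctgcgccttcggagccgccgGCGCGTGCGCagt
Snrpa1: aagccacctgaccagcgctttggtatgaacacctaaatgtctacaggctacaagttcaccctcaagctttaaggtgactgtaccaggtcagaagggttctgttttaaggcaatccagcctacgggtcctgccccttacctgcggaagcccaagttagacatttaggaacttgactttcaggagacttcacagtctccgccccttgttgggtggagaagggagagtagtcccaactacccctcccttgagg
Prpf3: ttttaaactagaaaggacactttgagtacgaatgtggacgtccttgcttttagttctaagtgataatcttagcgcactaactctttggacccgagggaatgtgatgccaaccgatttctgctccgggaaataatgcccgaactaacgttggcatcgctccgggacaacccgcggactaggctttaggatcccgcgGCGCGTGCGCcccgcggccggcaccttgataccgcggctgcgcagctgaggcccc
Sf3b3: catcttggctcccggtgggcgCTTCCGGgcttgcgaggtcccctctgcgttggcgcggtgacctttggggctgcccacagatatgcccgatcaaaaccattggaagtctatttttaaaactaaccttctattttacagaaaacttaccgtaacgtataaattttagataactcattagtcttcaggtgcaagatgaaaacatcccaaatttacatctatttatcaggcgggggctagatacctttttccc

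RefSeq windows of 250 bases before to 50 after the start were found for 29 of the 35 members. An ETS match was present in 13 of the 29 (44.8%), against 16.4% of the 11534 tested genes with a window and 9.12% of all 27025 windows. An NRF1 match was present in 8 (27.6%), against 9.49% of tested genes and 4.78% of all windows. The SP/KLF motif GGGCGG was found in 21 members (72.4%), near the 63.1% of tested genes, and it can lie beside or within other GC-rich matches. The NFY motif CCAAT was found in 9 members (31.0%, against 38.4% of tested genes), the TATA motif TATAAA in 2 (6.90%, against 7.16%) and the YY1 motif AAGATGGC in 1 (3.45%, against 4.26%). The median GC content of the windows was 58.0% in members and 60.7% in tested genes. These are matches of letters on both strands, and binding was not measured. Shares among genes expressed at the level of the members were not computed, and differences between the shares were not tested.

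Before the members, the libraries themselves were compared. The libraries held 36378803 to 74909774 counted reads, and the targeted gene *Snrpb* had a log2 fold change (log2FC, mutant minus WT) of −0.004, with a pointwise 95% interval from −6.22% to 6.10%, so its level did not separate the genotypes in whole heads. Fewer cells of a type and less RNA per cell cannot be told apart in such samples. In other embryos, with a widespread deletion made by a *β-actin-Cre* transgene, the paper found that the deleted *Snrpb* allele makes a shorter transcript. In such embryos, younger than the heads used here, the paper also measured a significantly reduced *Snrpb* level by quantitative RT-PCR. Counts were made per gene, so they can include reads from the remaining exons, and loss of exons 2 and 3 was not measured here. All 6 neural tube and all 6 neural crest markers looked up were expressed. The summed neural tube markers were 608 to 739 CPM (counts scaled to a common library size) in WT and 596 to 607 CPM in mutants, and the summed neural crest markers were 230.1 to 302 CPM and 263 to 288 CPM. WT replicate 1 stood apart, with summed primitive erythroid markers of 1488 CPM against 874 to 1211 CPM in the other libraries, visceral endoderm and yolk sac markers of 25.0 CPM against 4.57 to 6.01 CPM, and surface ectoderm markers of 266 CPM against 363 to 372 CPM. Cardiac muscle markers also differed among libraries, from 5.63 CPM in WT replicate 1 to 72.4 CPM in mutant replicate 3, with 16.8 to 42.6 CPM in the others. The 4 Y-linked genes summed to 62.8 to 120.0 CPM in WT and 111 to 229 CPM in mutants, and *Xist* was at 0.369 CPM in mutant replicate 2 against 64.9 to 155 CPM in the others. No marker gene reached an unadjusted *P* under 0.05 with edgeR, and the part of cell composition in the values of the members was not tested. The Y-linked level moved partly with genotype, and values fitted with the Y-linked level as a covariate are given below for the 9 members at an unadjusted *P* under 0.05. In that edgeR fit all 9 had the same adjusted *P* of 0.999, so it does not separate them. The unadjusted *P* stayed under 0.05 there in *Prpf39*, *Snrpa1*, *Prpf3*, *Sf3b3*, *Snrpb2* and *Sf3b1*, and not in *Luc7l3*, *Rbm17* and *Sf3a1*.

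Across the 35 members the differences between genotypes were small. With edgeR's quasi-likelihood test, 0 members had a Benjamini-Hochberg adjusted *P* under 0.05 (background: 1 of 15584 tested genes, 0.00642%), and the lowest adjusted *P* was 0.182, for *Prpf39* (edgeR). At an unadjusted *P* under 0.05 with edgeR, 9 members differed (background 8.43%), 7 higher in mutants (background 4.34% higher) and 2 lower (background 4.09% lower). DESeq2, which was the study's tool, called 4 members (background 0.651% of the 12908 genes it gave an adjusted *P*), *Prpf39*, *Snrpa1* and *Prpf3* higher (background 0.434%) and *Sf3b3* lower (background 0.217%). In 15 members the values of the genotypes did not overlap (background 15.2%), 12 of them higher in mutants (background 8.32%) and 3 lower (background 6.92%). With 3 libraries per genotype, an exact permutation test on 1 gene cannot give a *P* below 0.1.

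The log2FC was above 0 in 23 members and below 0 in 12 (background 50.2% above 0). It ranged from −0.22 in *Sf3b3* to 0.35 in *Prpf39*, with a median of 0.03 in members and 0.00 in all tested genes. An absolute log2FC over 0.2 was found in 6 members (background 20.7% of all tested genes, but 3.62% of the 5631 tested genes whose mean CPM lay within the range of the members). Standard errors of the log2FC were 0.035 to 0.160, with a median of 0.043. In 28 members the pointwise 95% interval lay wholly within a 1.25-fold change in either direction (background 54.3% of all tested genes but 5069 of the 5631 within that range of CPM, a larger share than in the members). The 7 whose interval reached past it were *Prpf39*, *Prpf3*, *Snrpa1*, *Luc7l3*, *Snrpb2*, *Sf3b3* and *Prpf8*. The spread within a genotype had a median SD of 0.048 on the log2 scale against 0.105 in all tested genes, whose median level was lower (18.3 CPM against 167 CPM in members). In the 5631 genes within the range of CPM of the members the median SD was 0.060, nearer to that of the members. Of the 5631 genes within the range of CPM of the members, 2.52% were higher and 6.16% lower at an unadjusted *P* under 0.05 (edgeR), and the genotypes did not overlap in 6.52% that were higher and 9.16% that were lower. The log2FC was above 0 in 2462 and below 0 in 3169 of these 5631 genes, with a median of −0.011.

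**Figure D1:**
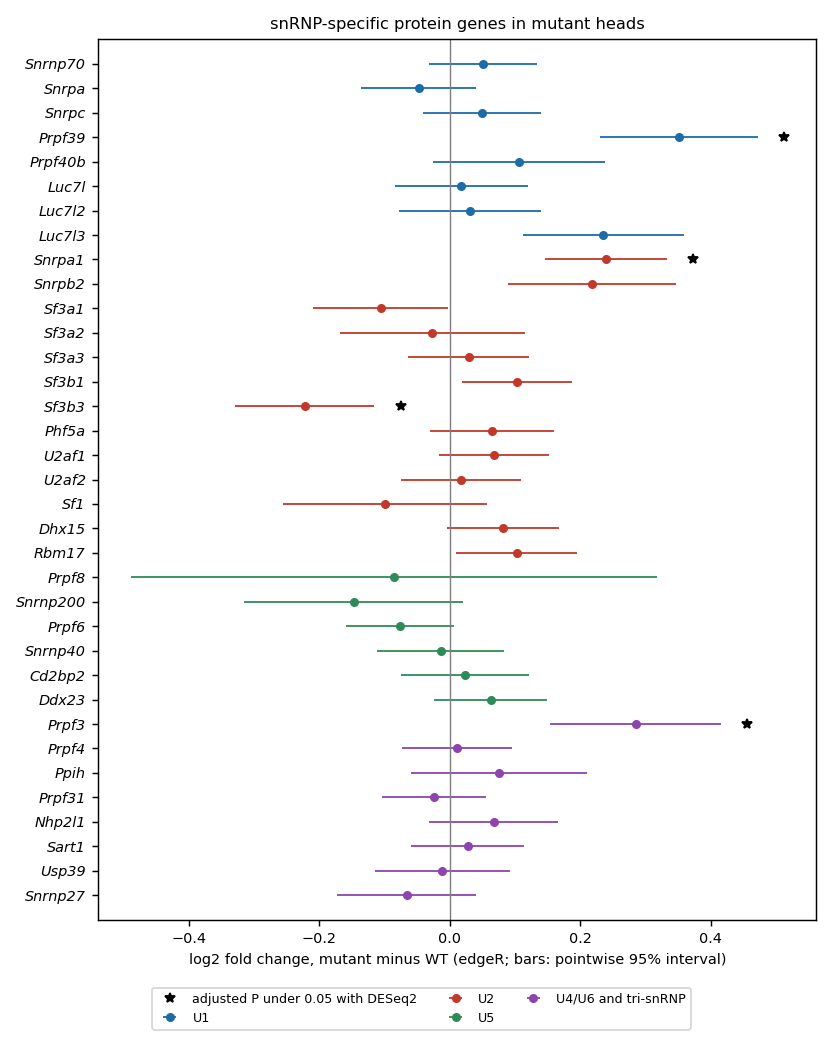
Log2 fold change of each of the 35 genes (x axis, mutant minus WT, edgeR) with its pointwise 95% interval, coloured by particle. *Prpf39*, *Prpf3* and *Snrpa1* lie farthest to the right and *Sf3b3* farthest to the left, and a star marks these 4, which had an adjusted *P* under 0.05 with DESeq2.

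By particle, U1 had 7 of 8 members above 0 and a median log2FC of 0.05. U2 had 9 of 13 above 0 and a median of 0.06, but it also held both members that were lower at an unadjusted *P* under 0.05 (edgeR). U5 had 2 of 6 above 0 and a median of −0.05, and the set of U4/U6 and tri-snRNP proteins had 5 of 8 above 0 and a median of 0.02. The differences between particles were not tested. Replicates were not alike in this respect. Of the 35 members, 28 lay above their own mean over the 6 libraries in mutant replicate 1, 19 in mutant replicate 2 and 22 in mutant replicate 3, against 13 to 15 in the WT libraries. Mutant replicate 1 held the highest value of 13 members, while WT replicate 3 held the lowest value of 11 and WT replicate 1 of 10. The summed level of all 35 members was 7577 to 7811 CPM in WT and 7653 to 7917 CPM in mutants, so the groups overlapped in the total.

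**Figure D2:**
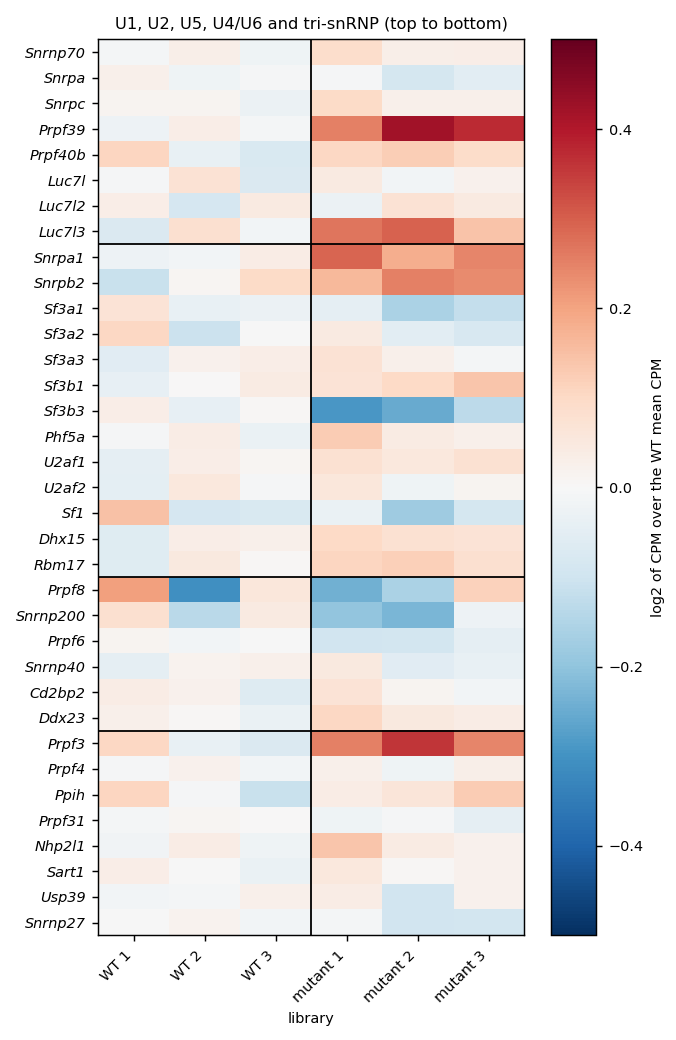
Level of each of the 35 genes (rows, grouped by particle) in each of the 6 libraries (columns), as log2 of the CPM over the WT mean CPM of that gene. *Prpf39*, *Luc7l3*, *Snrpa1*, *Snrpb2* and *Prpf3* are red in all 3 mutant libraries, *Sf3b3* is blue in all 3, and *Prpf8* varies within both genotypes.

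Among the core proteins of U1, no member reached an unadjusted *P* under 0.05 with edgeR. *Snrnp70* encodes U1-70K, which binds the first stem-loop of U1 RNA, and its level was 341, 351 and 338 CPM in WT replicates 1, 2 and 3 and 365, 351 and 351 CPM in mutant replicates 1, 2 and 3. The mutant libraries lay above the WT libraries by less than the printed digits show, with a log2FC of 0.05 (SE 0.036, edgeR adjusted *P* = 0.730). *Snrpc* encodes U1-C, which steadies the pairing of U1 with the 5′ splice site, and its log2FC was 0.05 (SE 0.040, edgeR adjusted *P* = 0.772), also without overlap. *Snrpa* encodes U1-A, which binds the second stem-loop, and its level was 145, 141 and 142 CPM in WT replicates 1, 2 and 3 and 142, 134 and 137 CPM in mutant replicates 1, 2 and 3. It was the 1 U1 member with a log2FC below 0 (−0.05, SE 0.039, edgeR adjusted *P* = 0.769), and its groups overlapped.

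The auxiliary proteins of U1 held the largest difference of all members. *Prpf39* encodes a homologue of a yeast U1 protein. The gene is on chromosome 12 (mm10, 65036333 to 65063386, plus strand). Across libraries it measured 56.6, 59.1 and 57.3 CPM in WT replicates 1, 2 and 3 and 68.7, 77.2 and 74.8 CPM in mutant replicates 1, 2 and 3. All 3 mutant libraries were above all 3 WT libraries, and the means were 57.7 ± 1.28 CPM for WT and 73.6 ± 4.34 CPM for mutants (SD, *n* = 3 libraries each). *Prpf39* rose in mutants with DESeq2 (adjusted *P* = 9.11e-05). The edgeR estimate of the change was 27.5%, a log2FC of 0.35 (SE 0.053, adjusted *P* = 0.182), ranking 8 of 15584 genes by *P*. With each library left out in turn the log2FC was 0.31 to 0.40, with the Y-linked level as a covariate it was 0.33 (edgeR adjusted *P* = 0.999), and with no filter on low counts edgeR called it as well (adjusted *P* = 0.0390). Its exons overlap those of *Fkbp3* on the other strand over 599 bases, or 5.01% of its exon length, and *Fkbp3* had a log2FC of 0.09.

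*Luc7l3* belongs to the LUC7-like family, whose members bind U1 and influence the choice of 5′ splice site. Its level was 146, 162 and 152 CPM in WT replicates 1, 2 and 3 and 184, 188 and 169 CPM in mutant replicates 1, 2 and 3. The groups did not overlap, and the log2FC was 0.24 (SE 0.055, edgeR adjusted *P* = 0.348), but the gene missed the threshold with DESeq2 too (adjusted *P* = 0.0556). With the Y-linked level as a covariate the log2FC was 0.14 (edgeR adjusted *P* = 0.999), no longer at an unadjusted *P* under 0.05. Its paralogs had smaller values. *Luc7l* had 190.1, 200.4 and 182 CPM in WT replicates 1, 2 and 3 and 197, 189 and 194 CPM in mutant replicates 1, 2 and 3, with a log2FC of 0.02 (SE 0.045), and *Luc7l2* had a log2FC of 0.03 (SE 0.048), both with overlapping groups. The pointwise 95% intervals were 0.11 to 0.36 for *Luc7l3*, −0.08 to 0.12 for *Luc7l* and −0.08 to 0.14 for *Luc7l2* on the log2 scale, and the differences between the paralogs were not tested. *Prpf40b*, which encodes a WW-domain protein thought to bridge U1 and the branch point factor SF1, had a log2FC of 0.11 (SE 0.058, edgeR adjusted *P* = 0.662) and overlapping groups.

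Both core proteins of U2 were higher in mutants at an unadjusted *P* under 0.05 with edgeR. *Snrpa1* encodes the A′ protein and *Snrpb2* the B″ protein of U2, which bind together to a stem-loop near the 3′ end of U2 RNA. *Snrpa1* is on chromosome 7 (mm10, 66059003 to 66074587, plus strand), with 195, 197 and 203 CPM in WT replicates 1, 2 and 3 and 242, 225 and 235 CPM in mutant replicates 1, 2 and 3. All mutant libraries were above all WT libraries, with means of 198 ± 4.43 CPM for WT and 234 ± 8.81 CPM for mutants (SD, *n* = 3 libraries each). *Snrpa1* rose with DESeq2 (adjusted *P* = 0.00385). The edgeR estimate of the change was 18.0%, a log2FC of 0.24 (SE 0.041, adjusted *P* = 0.235). It was 0.21 to 0.27 with each library left out in turn and 0.29 with the Y-linked level as a covariate (edgeR adjusted *P* = 0.999). The exons of *Snrpa1* overlap those of *Gm45213* on the same strand over 148 bases, or 4.67% of its exon length. *Gm45213* was not among the counted gene symbols. *Snrpb2* is on chromosome 2 (mm10, 143063039 to 143072853, plus strand), with 91.5, 99.5 and 106 CPM in WT replicates 1, 2 and 3 and 111, 118 and 117 CPM in mutant replicates 1, 2 and 3. Its groups did not overlap, WT replicate 3 lying closest to the mutants, and the log2FC was 0.22 (SE 0.057, edgeR adjusted *P* = 0.424). With DESeq2 the adjusted *P* was 0.135, so neither tool called it, and with the Y-linked level as a covariate the log2FC was 0.27 (edgeR adjusted *P* = 0.999).

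The SF3a and SF3b complexes are parts of U2 that hold it at the branch point, and their genes had log2FC values on both sides of 0. *Sf3b3*, which encodes a large scaffold protein of SF3b, is on chromosome 8 (mm10, 110810239 to 110846787, minus strand). Across libraries it measured 512, 487 and 503 CPM in WT replicates 1, 2 and 3 and 409, 421 and 457 CPM in mutant replicates 1, 2 and 3. All mutant libraries were below all WT libraries, with means of 501 ± 12.8 CPM for WT and 429 ± 24.8 CPM for mutants (SD, *n* = 3 libraries each). *Sf3b3* fell in mutants with DESeq2 (adjusted *P* = 0.0227). The edgeR estimate of the change was −14.3%, a log2FC of −0.22 (SE 0.047, adjusted *P* = 0.309). The log2FC was −0.28 to −0.19 with each library left out in turn and −0.15 with the Y-linked level as a covariate (edgeR adjusted *P* = 0.999). Its exons overlap those of *Cog4* on the other strand over 188 bases, or 1.72% of its exon length. *Cog4* had a log2FC of −0.11 and was among the genes at an unadjusted *P* under 0.05 with edgeR, and no source used here states whether the counting used strand.

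*Sf3b1* encodes the SF3b protein that clamps the branch point duplex and is often mutated in myeloid neoplasms. Its level was 723, 746 and 765 CPM in WT replicates 1, 2 and 3 and 781, 798 and 819.5 CPM in mutant replicates 1, 2 and 3. The groups did not overlap, but the difference was small, with a log2FC of 0.10 (SE 0.037, edgeR adjusted *P* = 0.501; DESeq2 adjusted *P* = 0.555). *Sf3a1*, a subunit of SF3a, had 295, 274 and 276 CPM in WT replicates 1, 2 and 3 and 273, 253 and 259 CPM in mutant replicates 1, 2 and 3. The mutant libraries were lower without overlap, mutant replicate 1 lying just below WT replicate 2, and the log2FC was −0.11 (SE 0.046, edgeR adjusted *P* = 0.569). The *P* of *Sf3b1* and that of *Sf3a1* each stayed under 0.05 in 2 of the 6 edgeR fits that left out 1 library. With the Y-linked level as a covariate the log2FC was 0.14 in *Sf3b1* and −0.10 in *Sf3a1*, and the unadjusted *P* of *Sf3a1* was then above 0.05. *Phf5a*, *Sf3a3* and *Sf3a2*, which encode further subunits, had log2FC values of 0.06, 0.03 and −0.03 and overlapping groups.

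Of the factors that recognise the 3′ splice site and branch point before U2, none reached an unadjusted *P* under 0.05 with edgeR. *U2af1* encodes the small U2AF subunit, which contacts the AG at the end of the intron, and its level was 171, 181 and 178 CPM in WT replicates 1, 2 and 3 and 186, 183 and 186 CPM in mutant replicates 1, 2 and 3. Its mutant libraries were above WT without overlap, with a log2FC of 0.07 (SE 0.038, edgeR adjusted *P* = 0.667). *U2af2*, which encodes the large subunit that binds the polypyrimidine tract, had a log2FC of 0.02 (SE 0.040). *Sf1*, whose product binds the branch point first, had 248, 211 and 212 CPM in WT replicates 1, 2 and 3 and 218, 198 and 210.3 CPM in mutant replicates 1, 2 and 3, where WT replicate 1 was the highest library and the groups overlapped. Its log2FC was −0.10 (SE 0.068) with all libraries and −0.02 without WT replicate 1.

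The 2 proteins that join U2 more loosely both had positive values. *Rbm17* encodes SPF45, a splicing factor that binds SF3B1, and its level was 153, 165 and 160.0 CPM in WT replicates 1, 2 and 3 and 171, 173 and 168 CPM in mutant replicates 1, 2 and 3. Its groups did not overlap, with a log2FC of 0.10 (SE 0.041, edgeR adjusted *P* = 0.544). Its unadjusted *P* stayed under 0.05 in 1 of the 6 edgeR fits that left out 1 library and was above 0.05 with DESeq2, with the replicate block and with the Y-linked level as a covariate (log2FC 0.08). *Dhx15* encodes a helicase that takes spliceosomes apart, and its level was 518, 553 and 549.7 CPM in WT replicates 1, 2 and 3 and 579, 569 and 567 CPM in mutant replicates 1, 2 and 3. Its groups did not overlap either, and its log2FC was 0.08 (SE 0.038, edgeR adjusted *P* = 0.606).

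**Figure D3:**
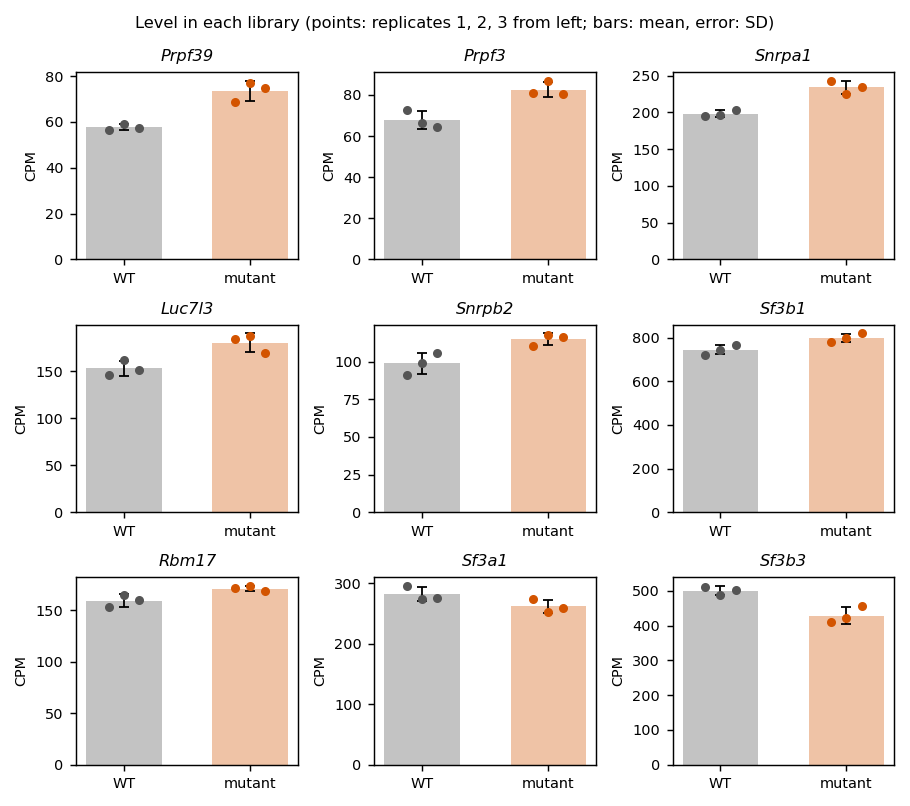
CPM of the 9 genes with an unadjusted *P* under 0.05 (edgeR) in each library, 1 panel per gene with the y axis from 0. Points are libraries, bars the mean and error bars the SD of 3 libraries, and in every panel the points of WT and mutants do not overlap.

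No U5 member reached an unadjusted *P* under 0.05 with edgeR. *Prpf8*, which encodes the large protein at the catalytic centre, was the most variable member, with 754, 528 and 679.6 CPM in WT replicates 1, 2 and 3 and 554, 586 and 708 CPM in mutant replicates 1, 2 and 3. Its SD within a genotype was 0.23 on the log2 scale, against a median of 0.048 over members, and WT replicate 2 was lower than all mutant libraries while WT replicate 1 was higher than all of them. The log2FC of −0.09 (SE 0.160) therefore had an interval of −0.49 to 0.32. It was 0.03 without WT replicate 1, −0.22 without WT replicate 2 and 0.14 with the Y-linked level as a covariate, so these libraries gave no direction for *Prpf8*. *Snrnp200* encodes the helicase that unwinds U4 from U6, and its level was 519, 446 and 506 CPM in WT replicates 1, 2 and 3 and 428, 418 and 482 CPM in mutant replicates 1, 2 and 3. WT replicate 2, mutant replicate 1 and mutant replicate 2 were the lowest libraries, as in *Prpf8*. The log2FC of *Snrnp200* was −0.15 (SE 0.073, edgeR adjusted *P* = 0.635) and 0.00 with the Y-linked level as a covariate.

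The other U5 members were tighter. *Prpf6*, whose product bridges U5 and U4/U6, had 146, 143 and 144 CPM in WT replicates 1, 2 and 3 and 135, 136 and 140.0 CPM in mutant replicates 1, 2 and 3. Its mutant libraries lay below WT without overlap, with a log2FC of −0.08 (SE 0.036, edgeR adjusted *P* = 0.618). *Ddx23* encodes a helicase that acts when U1 leaves the 5′ splice site, and its level was 207, 204 and 199 CPM in WT replicates 1, 2 and 3 and 218, 210.2 and 209 CPM in mutant replicates 1, 2 and 3. The groups did not overlap, and the log2FC was 0.06 (SE 0.038, edgeR adjusted *P* = 0.687). *Snrnp40*, for the WD-repeat U5-40K protein, and *Cd2bp2*, for the U5-52K protein found in U5 but not in the tri-snRNP, had log2FC values of −0.01 and 0.02 with overlapping groups.

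Of the U4/U6 proteins, *Prpf3* differed most between genotypes. Its product binds U4/U6 together with PRPF4 and PPIH. *Prpf3* is on chromosome 3 (mm10, 95830124 to 95855885, minus strand), with 72.9, 66.2 and 64.5 CPM in WT replicates 1, 2 and 3 and 80.8, 86.8 and 80.3 CPM in mutant replicates 1, 2 and 3. All mutant libraries were above all WT libraries, with means of 67.9 ± 4.43 CPM for WT and 82.6 ± 3.66 CPM for mutants (SD, *n* = 3 libraries each). *Prpf3* rose with DESeq2 (adjusted *P* = 0.0144). The edgeR estimate of the change was 21.8%, a log2FC of 0.28 (SE 0.058, adjusted *P* = 0.309). The log2FC was 0.25 to 0.33 with each library left out in turn and 0.20 with the Y-linked level as a covariate (edgeR adjusted *P* = 0.999).

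The partners of *Prpf3* in the particle did not show a difference of that size. *Prpf4* had 115, 117 and 115 CPM in WT replicates 1, 2 and 3 and 118, 114 and 118 CPM in mutant replicates 1, 2 and 3, and its log2FC of 0.01 (SE 0.038) had an interval of −0.07 to 0.10, below the interval of 0.15 to 0.42 for *Prpf3*. *Ppih*, a cyclophilin, had a log2FC of 0.08 (SE 0.059), with an interval of −0.06 to 0.21 that overlapped that of *Prpf3*. *Nhp2l1* encodes the 15.5K protein that binds the kink-turn of U4, and its log2FC was 0.07 (SE 0.044) with overlapping groups. *Prpf31*, whose product binds next to it and is mutated in retinitis pigmentosa, had 169, 171 and 169.8 CPM in WT replicates 1, 2 and 3 and 167, 169 and 164 CPM in mutant replicates 1, 2 and 3 and a log2FC of −0.02 (SE 0.035).

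The 3 proteins that join only in the tri-snRNP did not reach an unadjusted *P* under 0.05 with edgeR. *Snrnp27*, for the tri-snRNP 27K protein, had 43.9, 44.6 and 43.5 CPM in WT replicates 1, 2 and 3 and 43.6, 41.1 and 41.3 CPM in mutant replicates 1, 2 and 3 and a log2FC of −0.07 (SE 0.047, edgeR adjusted *P* = 0.728). *Sart1* had 129, 126 and 124 CPM in WT replicates 1, 2 and 3 and 131, 127 and 128 CPM in mutant replicates 1, 2 and 3 and a log2FC of 0.03 (SE 0.038), and *Usp39* had a log2FC of −0.01 (SE 0.046). Both encode proteins needed to assemble or keep the tri-snRNP. The groups of all 3 genes overlapped, and their pointwise 95% intervals lay within a 1.25-fold change.

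**Figure D4:**
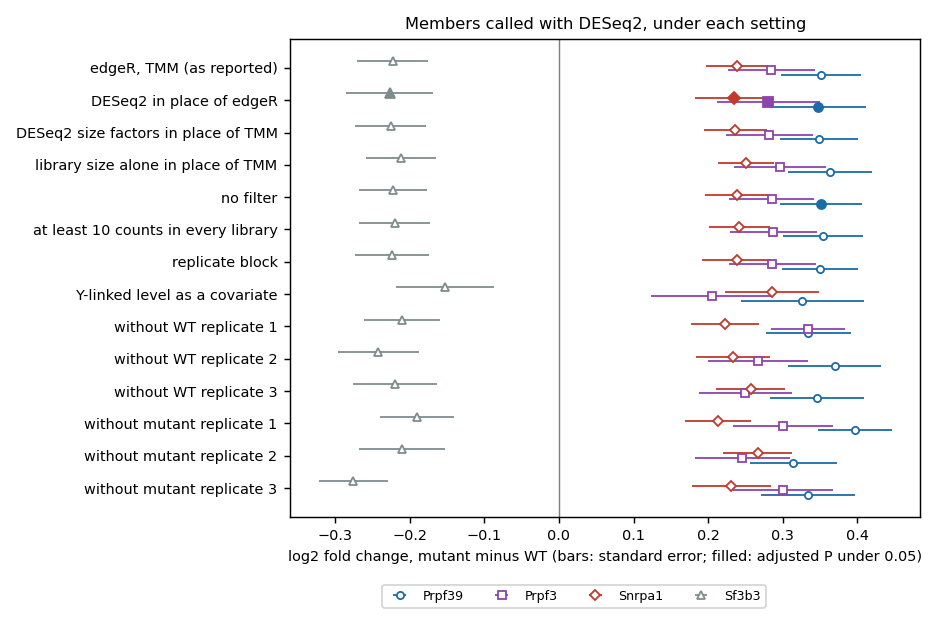
Log2 fold change (x axis, bars are the standard error) of the 4 genes called with DESeq2, under each way of fitting the counts (rows). Filled symbols had an adjusted *P* under 0.05, which was reached by all 4 with DESeq2 and by *Prpf39* with no filter, and the sign of each gene was the same in every row.

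The levels of the members were compared per kilobase of exon, since longer genes collect more reads. In WT the level of the 35 members ranged from 4.82 CPM per kb in *Prpf39* to 119 CPM per kb in *U2af2*, 24.7-fold, with a median of 39.1 CPM per kb. With exons of protein-coding transcripts alone, a length chosen after the data were examined, the range was 22.6-fold and *Prpf40b* was the lowest in place of *Prpf39*. The U2 members were the most abundant by median (63.6 CPM per kb, from 21.7 in *Sf3a2*), and the U1 members the least (18.5 CPM per kb, up to 48.1 in *Snrpa*). U5 members ranged from 32.7 CPM per kb in *Ddx23* to 87.7 in *Prpf8*, with a median of 39.0 CPM per kb. U4/U6 and tri-snRNP members ranged from 11.99 CPM per kb in *Prpf3* to 58.0 in *Nhp2l1*, with a median of 27.6 CPM per kb. With protein-coding exons alone the medians were 111, 67.8, 34.9 and 29.3 CPM per kb in U2, U5, U4/U6 with tri-snRNP, and U1, the same order, but the extremes moved. *Snrnp70* was then the highest U1 member (184 CPM per kb, against 90.9 in *Snrpa*), and *Snrnp40* (102 CPM per kb) and *Cd2bp2* (37.6 CPM per kb) were the highest and lowest of U5. So *Prpf39* and *Prpf3*, which DESeq2 called higher in mutants, had the lowest WT levels per kb of their particles (with protein-coding exons alone, *Prpf3* still did), while *Snrpa1* was at 62.6 CPM per kb and *Sf3b3* at 45.9 CPM per kb.

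Among paralogs, *Luc7l* was at 25.3 CPM per kb in WT, *Luc7l3* at 21.1 and *Luc7l2* at 11.8. With protein-coding exons alone they were at 34.2, 22.8 and 24.4 CPM per kb, so the order of *Luc7l2* and *Luc7l3* turned with the length used. *Snrpa* was at 48.1 and *Snrpb2*, which encodes a related RNA-binding protein, at 34.6 CPM per kb (90.9 and 44.1 with protein-coding exons). *Prpf40b* was at 6.78 CPM per kb.

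**Figure D5:**
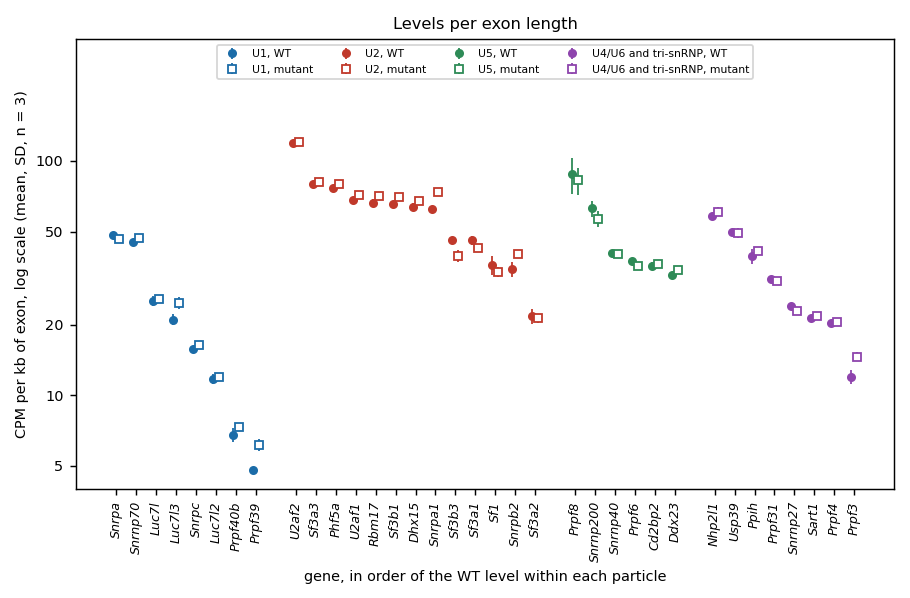
Level of each gene in CPM per kb of exon (log y axis; mean and SD of 3 libraries), WT filled and mutant open, ordered by the WT level within each particle. The spread among genes, from 4.82 to 119 CPM per kb in WT, is far wider than the distance between the 2 genotypes of any gene.

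Features of the gene models were compared between the 9 members at an unadjusted *P* under 0.05 (edgeR) and the other 26, as a description. In Gencode M21, all 9 have an annotated retained-intron transcript, against 20 of the 26, and 5 of the 9 have a transcript annotated for nonsense-mediated decay, against 12 of the 26. The 9 also have more annotated transcripts (median 8 against 6) and a longer exon length (median 6147 against 4532.5 bases). The shares over all tested genes were not computed, and the difference between the 9 and the 26 was not tested. The counts were made per gene, so a change in isoform is not separated from a change in level. A divergent gene starts within 1000 bases upstream of 6 members, and in none of these pairs was the neighbour at an unadjusted *P* under 0.05 with edgeR. Genes that start inside a member on the other strand were not counted. *Cog4*, whose exons overlap those of *Sf3b3* on the other strand, was not among these pairs (log2FC −0.11, unadjusted *P* under 0.05 with edgeR). For example *Sf3a1* (log2FC −0.11) starts 57 bases from the start of *Ccdc157*, which had a log2FC of 0.07. *Snrnp200* starts 106 bases from *1810024B03Rik* (log2FC −0.01) and *Prpf31* 56 bases from *Tfpt* (log2FC 0.07).

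Other proteins of the same particles, taken from a separate list that held the Lsm proteins of U6 and further U1, U2, U5 and tri-snRNP proteins, were looked up beside the members. All 29 were tested, and 0 were called by edgeR at an adjusted *P* under 0.05 or by DESeq2. At an unadjusted *P* under 0.05 with edgeR, 2 were higher in mutants, against a background of 4.34%. *Smndc1*, which encodes the U2-associated protein SPF30, had a log2FC of 0.15 (edgeR adjusted *P* = 0.437), and *Prpf4b*, a kinase of the tri-snRNP, had 0.13 (edgeR adjusted *P* = 0.465). In both the groups did not overlap. The median log2FC of the 29 was 0.01, and 17 were above 0. Whether the 35 members and these 29 differed from each other was not tested.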

How the data were processed

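Paired-end, stranded libraries of ribosomal RNA-depleted total RNA were made by the authors. Reads were trimmed, mapped to mm10 with STAR and counted per gene, and the deposited values are raw counts, without normalization, for 24421 gene symbols. The paper's text names HTSeq and Gencode M2, whereas the submitters' processing notes list Trim Galore, STAR, featureCounts and MultiQC. The strand setting is not given in the sources used here. Groups came from the genotype in the labels, and no column was left unassigned.

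For the counts, the quasi-likelihood test of edgeR 4.0.16 in R 4.3.3 was run (TMM, filterByExpr by genotype, robust, two-sided, Benjamini-Hochberg threshold 0.05) over all 15584 genes kept, 8837 being left out. CPM were scaled by TMM, whose factors were 0.991 to 1.015. Intervals are pointwise. DESeq2 (version 1.42.0, alpha 0.05) was an alternative, with others as listed in the closing section. The percent changes are from edgeR's fold changes. Scripts were tested on simulated data. Libraries differed by more than sampling noise (chi-square per degree of freedom 8.32 to 22.6), so none was a duplicate. The common biological coefficient of variation over the genes kept was 0.0871. How much of the spread of single members came from read depth was not tested.

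The members and lists were chosen with earlier results of these data known. Values in every library are given for members called by either tool, those at an unadjusted *P* under 0.05, and the highest and lowest log2FC in each subgroup. *Luc7l*, *Prpf4*, *Prpf6* and *Prpf8* were added after their values were seen. Exon lengths, coordinates and gene models are from Gencode M21 (GRCm38, which is mm10), and 35 of 35 symbols matched. Promoters are from RefSeq (29 of 35 matched). Figures were drawn with matplotlib (version 3.10.9). Each library is a separate pool of 2 heads. Results for 1 gene of the list of other snRNP proteins are not reported here.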

Additional observations from a re-analysis of the deposited data

How the results depend on the processing

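The number of genes called moved from 1 with edgeR to 84 with DESeq2, 11 with no filter and 0 with the Y-linked level as a covariate, and was 0 to 6 with each library left out. The number of members called moved from 0 to 4 with DESeq2 and to 1 with no filter, and was 0 in the other fits. Members at an unadjusted *P* under 0.05 numbered 6 to 9 under all alternatives, by DESeq2's own *P* in the DESeq2 fit (7) and by edgeR in the others. Those that were lower fell from 2 to 1 with DESeq2, with library size in place of TMM, with at least 10 counts in every library and with the Y-linked level as a covariate, and were 1 to 3 with each library left out (1 without WT replicate 1, WT replicate 3 or mutant replicate 2).

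With the Y-linked level as a covariate, the median log2FC of U2 members moved from 0.06 to 0.026 and that of U5 members from −0.05 to 0.00069, and the sign turned in *Luc7l* (−0.023), *Prpf8* (0.14), *Snrnp200* (0.0019), *Cd2bp2* (−0.032) and *Usp39* (0.050). No member had an adjusted *P* under 0.05 in that edgeR fit, and the cause was not tested. The U5 median was −0.053 to −0.0071 with each library left out, the upper end being without WT replicate 1. The median of all members (0.029) was 0.014 without mutant replicate 1 and 0.045 without WT replicate 2, that of U2 was 0.033 without mutant replicate 1 and 0.042 without WT replicate 1, and that of U4/U6 and tri-snRNP (0.019) was 0.0071 without WT replicate 3, 0.0088 without mutant replicate 1, 0.010 without mutant replicate 3 and 0.033 without mutant replicate 2. *Snrpb* moved from −0.0036 to 0.0074 with library size in place of TMM, and was −0.026 to 0.019 with each library left out. The sign also turned when single libraries were left out, over ranges of −0.017 to 0.056 in *Luc7l*, −0.0093 to 0.058 in *Luc7l2*, −0.078 to 0.022 in *Sf3a2*, −0.0023 to 0.045 in *Sf3a3*, −0.011 to 0.045 in *U2af2*, −0.22 to 0.025 in *Prpf8*, −0.047 to 0.0058 in *Snrnp40*, −0.0077 to 0.039 in *Cd2bp2*, −0.0041 to 0.026 in *Prpf4* and −0.037 to 0.028 in *Usp39*. Of 455 values of single members under alternatives, 434 kept their direction and side of the threshold, 16 turned sign and 5 passed the threshold.

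Whether replicate numbers pair the libraries was not tested. Deviations from the genotype mean correlated by 0.17, 0.03 and 0.36 between libraries of the same number. Between libraries of different numbers they correlated by −0.25 to 0.09. WT replicate 2 correlated about equally with mutant replicate 1 (0.04) and mutant replicate 2 (0.03). With the replicate block, 1 gene and 0 members were called, and 9 members had an unadjusted *P* under 0.05 (edgeR), 6 higher and 3 lower.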
